A study of Mus musculus with 4 samples.

Results

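The genes described here are 10 genes that are widely used as markers of astrocytes, *Gfap*, *Aqp4*, *Aldh1l1*, *Aldoc*, *Gja1*, *Gjb6*, *S100b*, *Fgfr3*, *Glul* and *Slc4a4*. They were chosen by name, and each of the 10 had at least 1 probe among the 32585 genes or transcript identifiers on the array, 16 probes in all. Spinal cord and duodenum were taken for RNA from male mice aged 20 weeks, either IP6K2-KO animals, in which the exon that encodes the kinase domain of the inositol pyrophosphate-synthesizing enzyme IP6K2 is deleted, or their WT littermates. All animals had been moved from a normal diet to the purified iVid-neo diet, which they ate for 1 week, and a fast of 48 h followed. Each of the 4 groups (WT spinal cord, IP6K2-KO spinal cord, WT duodenum, IP6K2-KO duodenum) was measured on 1 one-colour array, and all 4 arrays lay on 1 slide. No group had a replicate, so no test was made and no difference below carries information on the variation between mice.

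Astrocytes are the glial cells of the central nervous system that take up potassium, glutamate and water from the extracellular space, feed neurons and seal the vessel wall with their endfeet. The 10 genes cover these tasks. *Gfap* encodes the intermediate filament of the astrocyte skeleton. *Aqp4* encodes the water channel of the endfeet, and *Slc4a4* encodes a sodium bicarbonate cotransporter. *Gja1* and *Gjb6* encode connexins 43 and 30, which join astrocytes through gap junctions. *Aldh1l1* (a folate enzyme), *Aldoc* (a glycolytic aldolase) and *Glul* (glutamine synthetase, which turns glutamate into glutamine) encode enzymes, *S100b* a calcium-binding protein and *Fgfr3* a receptor for fibroblast growth factors. The duodenum has no astrocytes, but its enteric glia are known to share *Gfap* and *S100b* with them, and epithelial or pancreatic cells use several of the enzymes and transporters.

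The windows before the transcription start illustrate how differently these genes are built, and 4 are shown, *Gfap* and *S100b* as genes that were dim or undetected in the duodenum and *Glul* and *Fgfr3* as genes that were bright in both tissues. The sequences are the 250 bases before the start, 5′ to 3′ on the strand of the gene, from RefSeq on GRCm38.p6, and capitals mark CpG dinucleotides.
Gfap, chr11:102897201-102897450, minus strand: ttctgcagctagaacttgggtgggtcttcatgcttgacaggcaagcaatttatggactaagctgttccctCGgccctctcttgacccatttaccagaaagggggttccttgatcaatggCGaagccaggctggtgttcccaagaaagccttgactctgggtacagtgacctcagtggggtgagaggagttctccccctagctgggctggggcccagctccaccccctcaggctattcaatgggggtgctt
S100b, chr10:76253586-76253835, plus strand: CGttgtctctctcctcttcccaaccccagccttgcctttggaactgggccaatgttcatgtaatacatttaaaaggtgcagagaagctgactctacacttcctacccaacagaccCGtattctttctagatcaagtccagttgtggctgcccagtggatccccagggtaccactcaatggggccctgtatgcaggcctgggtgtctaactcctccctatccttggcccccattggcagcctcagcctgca
Glul, chr1:153899679-153899928, plus strand: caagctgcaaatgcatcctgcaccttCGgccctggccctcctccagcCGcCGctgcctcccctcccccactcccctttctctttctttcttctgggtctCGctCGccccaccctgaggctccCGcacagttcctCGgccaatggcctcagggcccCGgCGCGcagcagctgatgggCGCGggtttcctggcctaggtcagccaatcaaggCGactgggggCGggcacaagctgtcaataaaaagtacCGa
Fgfr3, chr5:33721474-33721723, plus strand: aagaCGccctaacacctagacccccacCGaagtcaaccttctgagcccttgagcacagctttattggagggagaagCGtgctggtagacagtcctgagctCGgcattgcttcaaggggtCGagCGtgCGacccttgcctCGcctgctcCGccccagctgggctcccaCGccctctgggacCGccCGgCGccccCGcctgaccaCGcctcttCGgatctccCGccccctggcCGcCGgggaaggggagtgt
These windows held 2 CpG dinucleotides for *Gfap*, 2 for *S100b*, 15 for *Glul* and 19 for *Fgfr3*, against a median of 6 and quartiles of 2 and 16 over all 32851 windows in the table. Of the 10 genes, 9 had a window there and *Aqp4* had none. *Aldoc*, *Fgfr3* and *Slc4a4* each had 2 windows, and those of *Slc4a4* held 44 and 3 CpG dinucleotides. Genes that were bright in both tissues were not all rich in CpG, since the windows of *Aldoc* held 5 and 3 and that of *Aldh1l1* 7. Those of *Gja1* and *Gjb6*, dim or undetected in the duodenum, held 6 and 5. On both strands, with overlapping matches counted, the TATA-box motif TATAAA occurred in none of the 12 windows of the 9 genes and in 12.4% of all windows. TTGGCA (a partial site of NFI factors) occurred in the window of *S100b* and in 1 of the 2 of *Aldoc*, and in 12.3% of all windows, and TTCNNNGAA (the spacing of a STAT site) occurred in the other *Aldoc* window and in 7.02% of all. Such matches describe letters and not bound sites.

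The targeted gene and the markers of other tissues were examined first. The 1 probe for *Ip6k2* gave a processed signal (intensity after background subtraction) of 452 in WT and 1320.3 under the IP6K2-KO label in the spinal cord, and of 139 and 572 in the duodenum. After each array was set on its own 75th percentile, this was higher by 1.45 on the log2 scale on the spinal cord array labelled IP6K2-KO and differed by −0.21 in the duodenum. The position of the probe relative to the deleted exon is not known, so genotypes are given as labelled throughout. The 75th percentile of the signal, which reflects how bright an array was, lay at 905 and 971 for the spinal cord arrays but at 68.0 and 323 for the duodenum arrays, WT first. The share of the 39429 probes called well above background was 76.8%, 77.4%, 51.6% and 66.3%, in the same sequence. Of the markers of each tissue, 8 of 8 neuron and 8 of 8 oligodendrocyte markers were well above background on both spinal cord arrays and 8 of 8 enterocyte markers on both duodenum arrays. The background call alone does not separate the tissues, since 5 and 8 of the neuron markers and 5 and 6 of the oligodendrocyte markers also passed it on the WT and the IP6K2-KO duodenum arrays. Their summed normalized signal (linear, relative to the 75th percentile) does, at 253 and 243 for the neuron markers in the spinal cord against 19.2 and 11.6 in the duodenum. The duodenum arrays also carried 8 of 8 pancreatic acinar markers, and pancreas attached to the duodenum cannot be told apart from the duodenum itself. In tissue RNA of this kind, fewer cells of a type and less RNA per cell cannot be told apart.

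In the spinal cord the 10 astrocyte genes were well above background on both arrays, and none of the 10 differed between the genotypes by as much as 2-fold. The differences, KO minus WT on the log2 scale, ran from −0.36 (*Fgfr3*) to 0.07 (*Glul*) with a median of −0.16, so that the largest corresponded to 1.28-fold. Of the 25232 genes measured in this comparison, 2.5% were at least 2-fold higher and 1.34% at least 2-fold lower on the array labelled IP6K2-KO, so a count of 0 in 10 genes lies near this background. Among the 24176 genes that both arrays measured above background, the median was −0.04. As a yardstick for single genes, the technical SD was taken from 399 probes spotted 10 times on each array, and it covers differences between spots and not between mice.

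**Figure D1:**
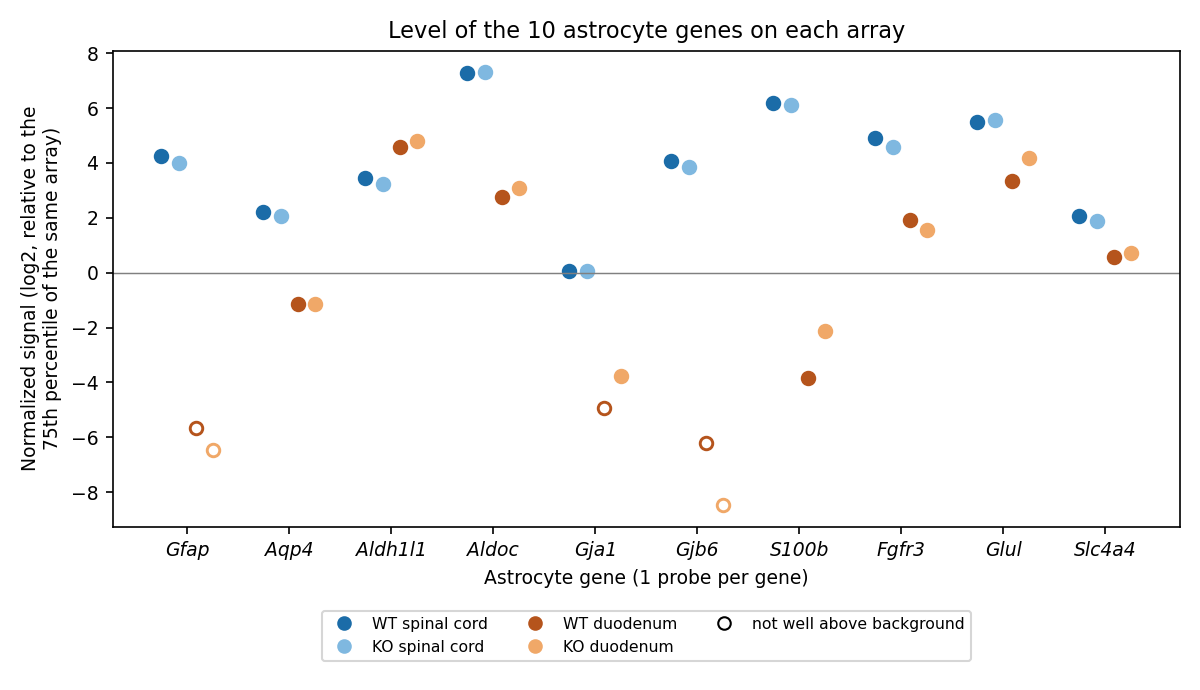
Normalized signal (log2, relative to the 75th percentile of the same array) of the 10 astrocyte genes on each of the 4 arrays, with 1 point per array and 1 probe per gene, and open points where the probe was not well above background. The WT and IP6K2-KO spinal cord points of a gene lie at most 0.36 apart, whereas the duodenum points lie far lower for most genes and higher for *Aldh1l1* on this scale.

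*Gfap*, the filament gene whose level is the classical sign of an astrocyte reaction, was represented by 3 probes. The probe used for the gene gave 17196 in WT and 15403 under the IP6K2-KO label, a difference of −0.26 ± 0.06 (technical SD). The second probe gave 19077 and 18075 (−0.18 ± 0.06) and the last, a dimmer one, 909 and 888 (−0.13 ± 0.06). The 3 probes all lay slightly below 0.

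The channel and transporter genes of the endfeet lay as close together. *Aqp4* gave 4149.9 in WT and 4098 under the IP6K2-KO label, a difference of −0.12 ± 0.06, and its second probe gave 3644 and 3823 (−0.03 ± 0.06). *Slc4a4* gave 3824 and 3589 with 1 probe (−0.19 ± 0.06) and 3542 and 3218 with another (−0.24 ± 0.06). The remaining *Slc4a4* probe was dim, at 12.1 and 9.42, with a difference of −0.46 ± 0.23, about 2 technical SDs from 0.

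The connexin genes lay at 0 or slightly below it. *Gja1*, whose probe is spotted 10 times per array, gave 948 and 1005, a difference of −0.02 ± 0.02, the most precise value among the 10. *Gjb6* gave 15072 and 13998, a difference of −0.21 ± 0.06.

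Among the enzymes, *Aldoc* gave 142130.0 and 153512 (0.01 ± 0.06) and *Glul* gave 40552 and 45543 (0.07 ± 0.06). These were the only positive differences, and neither exceeded 2 technical SDs. *Aldh1l1* gave 9945 and 9091, a difference of −0.23 ± 0.06. *S100b* gave 66134 and 67287 (−0.08 ± 0.06).

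*Fgfr3* had the largest difference of the 10 in the spinal cord. Its probes gave 27577 and 23128 (−0.36 ± 0.06) and, for the dimmer one, 1054 and 845 (−0.42 ± 0.06), both lower on the array labelled IP6K2-KO. Even so, the 5th percentile of all measured genes lay at −0.50, beyond *Fgfr3*. Over the 16 probes, 14 differences were negative and 2 positive.

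**Figure D2:**
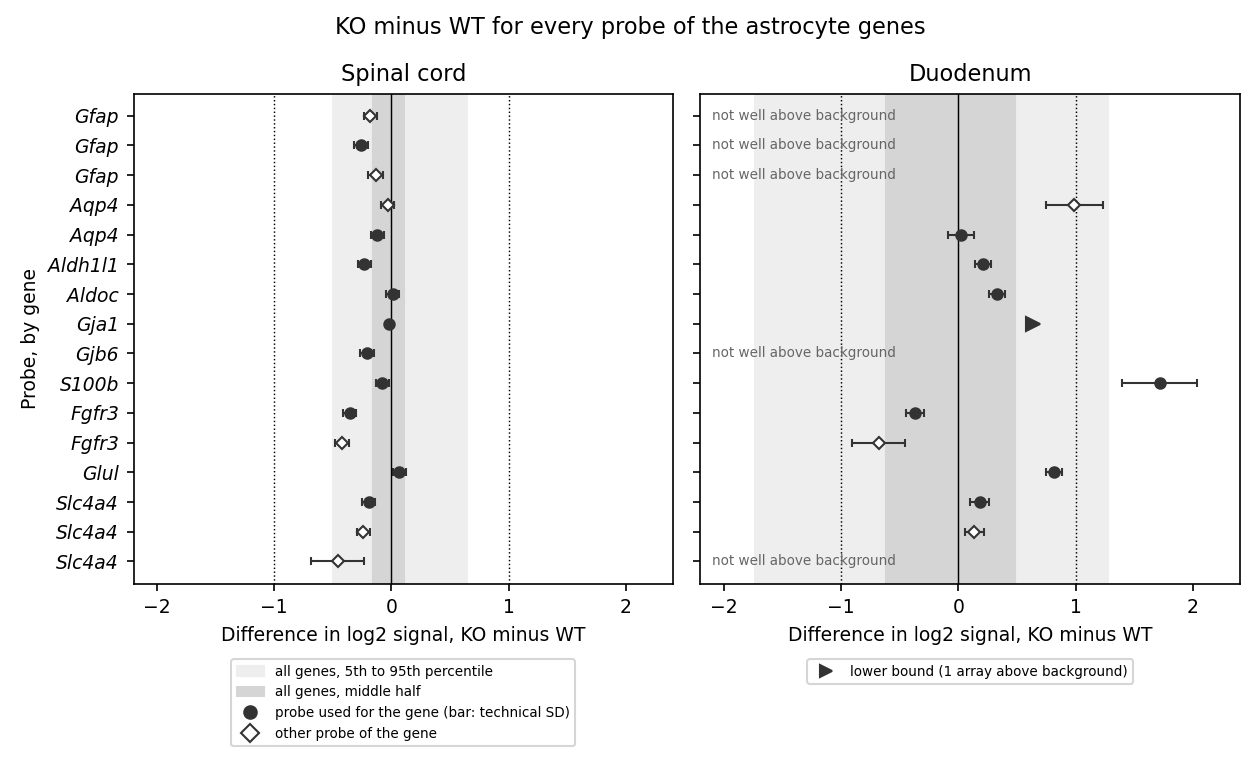
Difference in log2 signal, KO minus WT, of each of the 16 probes of the astrocyte genes in the spinal cord (left) and the duodenum (right), with bars of 1 technical SD (spots only) and grey bands for all measured genes. In the spinal cord every probe lies between −0.46 and 0.07, whereas in the duodenum the differences spread from −0.68 to 1.72 and 5 probes passed the background call on neither array.

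The sign of these small differences depended on the scaling. With normexp background correction on the deposited local backgrounds, 1 of which is an outlier on the WT spinal cord array, 8 of the 10 differences in the spinal cord were positive and the median was 0.15. With the flagged backgrounds replaced, a correction chosen after the data had been seen, the median was −0.12. Under no alternative did any of the 10 reach 2-fold in the spinal cord.

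Further astrocyte genes behaved alike in the spinal cord. Of 34 other astrocyte genes, 0 were 2-fold apart, 25 differences were negative and 9 positive, and the median was −0.08 with a range from −0.33 to 0.22. The 4 with the highest level in the spinal cord were *Sparcl1* (−0.27 ± 0.06), a secreted matricellular protein, *Clu* (−0.11 ± 0.06), the chaperone clusterin, *Atp1b2* (−0.09 ± 0.06), a sodium pump subunit, and *Kcnj10* (−0.29 ± 0.06), the potassium channel Kir4.1. Of 10 genes for the partners of the water channel in the endfoot, again 0 were 2-fold apart, with a median of −0.08.

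Genes that reactive astrocytes are known to raise had a median of 0.25 in the spinal cord, with 10 of 13 differences positive and 1 at least 2-fold higher. That gene was *Steap4*, named after its values were seen, which only the array labelled IP6K2-KO measured above background, at a signal of 9.53. Of the 4 with the highest level, *Lcn2* (lipocalin 2, which neutrophils also carry) gave 3361 and 7010.1, a difference of 0.96 ± 0.06. *Vim* (vimentin, an intermediate filament that many cell types share) gave 3069 and 3906 (0.25 ± 0.06), *Hspb1* (a small heat shock protein) 0.11 ± 0.06 and *Serpina3n* (a protease inhibitor) −0.17 ± 0.06. *Gfap*, which belongs to the same response, lay at −0.26. The neutrophil genes *S100a8* (1.05 ± 0.06) and *S100a9* (0.85 ± 0.06) were higher on the same array, and so were 6 of 6 blood markers. The part of blood in the values of the reactive genes was not tested.

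The relatives of each astrocyte gene were set beside it in the spinal cord. Of the other intermediate filament genes, *Synm* (synemin) gave 4076 and 2975, a difference of −0.56 ± 0.06, while the neurofilament genes *Nefl* (−0.05 ± 0.06), *Nefm* (0.06 ± 0.02) and *Nefh* (−0.07 ± 0.06) were close to 0. *Des* (desmin, a muscle filament) gave 3.44 ± 0.04. Of 10 other aquaporins, 7 were well above background, and *Aqp1*, the red cell and choroid water channel, gave 307 and 1074 (1.70 ± 0.06) as the only one 2-fold apart. Of 18 other connexins 12 had a value and 0 were 2-fold apart. *Gjb1*, a connexin of oligodendrocytes and Schwann cells, differed by 0.54 ± 0.06, in contrast to *Gjb6*.

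Among the enzymes and receptors related to the 10, *Aldoa*, the aldolase of most tissues, differed by −0.11 ± 0.06. *Aldoart1*, a testis aldolase, was well above background on the WT array alone, with a signal of 4.81, and was at least 2-fold lower on the array labelled IP6K2-KO. *Aldh1l2*, the mitochondrial counterpart of *Aldh1l1*, differed by −0.09 ± 0.09. Of 11 other genes for glutamate and glutamine handling, 1 was 2-fold apart, the transporter gene *Slc38a5* (1.29 ± 0.07), and the astrocytic glutamate transporters *Slc1a2* (−0.23 ± 0.06) and *Slc1a3* (0.07 ± 0.06) were not. The other fibroblast growth factor receptors *Fgfr1* (−0.13 ± 0.06), *Fgfr2* (−0.13 ± 0.08), *Fgfr4* (−0.02 ± 0.12) and *Fgfrl1* (−0.01 ± 0.06) were each less negative than *Fgfr3*. Of 9 genes induced by this pathway 0 were 2-fold apart, and the 4 with the highest level, *Etv5* (0.09 ± 0.06), *Etv1* (0.18 ± 0.06), *Etv4* (0.02 ± 0.06) and *Dusp6* (−0.07 ± 0.06), lay close to 0 or above it. *Spry1* (−0.34 ± 0.06) and *Spry4* (−0.46 ± 0.14), inhibitors that the pathway induces, were negative like *Fgfr3*, whereas their relative *Spry2* (0.24 ± 0.12) was positive. Over the 9 genes 4 differences were positive and 5 negative.

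The bicarbonate and calcium-binding families were less even than the astrocyte genes among them. Of 9 other Slc4 genes, 1 was 2-fold apart, *Slc4a1* (1.54 ± 0.06), the anion exchanger of red cells, and *Slc4a3* differed by 0.00 ± 0.06. Of 9 carbonic anhydrases, which work together with *Slc4a4*, 2 were at least 2-fold higher, *Car3* of muscle (2.69 ± 0.08) and *Car1* of red cells (1.19 ± 0.10), and 0 were lower. Of 14 other S100 genes 2 were at least 2-fold higher, *S100a8* and *S100a4* (1.09 ± 0.07), and 10 of the 13 with a value were positive, whereas *S100b* was not.

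Markers of other cells were far apart in the spinal cord, where the astrocyte genes did not reach 2-fold. Of 8 Schwann cell markers 6 were at least 2-fold higher on the array labelled IP6K2-KO, with a median of 2.25, and all 8 were positive. Their summed normalized signal (linear, relative to the 75th percentile) was 7.07 in WT and 33.4 under the IP6K2-KO label. *Prx*, periaxin of peripheral myelin, gave 188 and 7564 on these 2 arrays, a difference of 5.23 ± 0.07. Of 8 skeletal muscle markers 7 were at least 2-fold higher, with a median of 4.04 and summed signals of 27.5 and 84.3, and *Myh4*, a fast muscle myosin, gave 1246 and 21634 (4.02 ± 0.06). The remaining one, *Pvalb*, gave 21848 and 27588 (0.23 ± 0.06). It was the brightest of the 8 on both arrays and made up most of the WT sum. Of 6 blood markers 4 were at least 2-fold higher, with summed signals of 228 and 351. By contrast, the markers of the cells of the cord itself had medians of −0.06 for neurons, 0.10 for oligodendrocytes, 0.08 for microglia, 0.01 for ependymal cells and 0.26 for endothelium, with 0 genes 2-fold apart in each. The summed signal of the 10 astrocyte genes was 362 in WT and 347 under the IP6K2-KO label. The part of nerve root, muscle and blood in the astrocyte values was not tested.

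**Figure D3:**
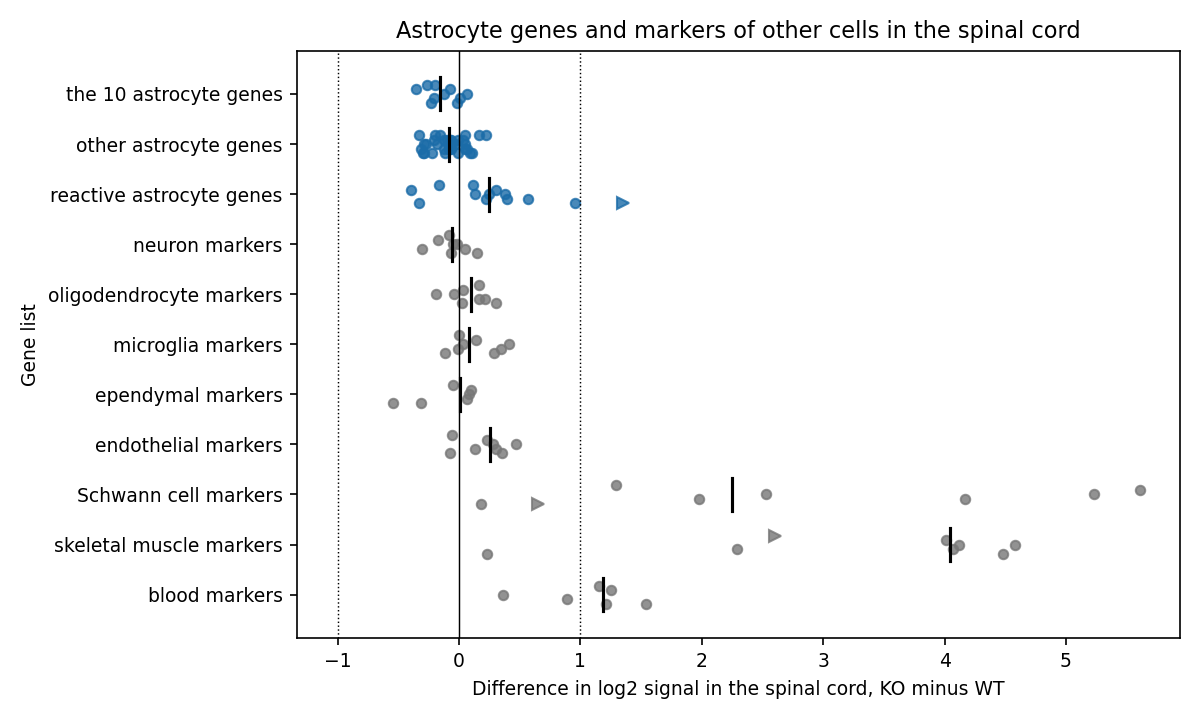
Difference in log2 signal in the spinal cord, KO minus WT, of the genes of each list (points, with triangles for lower bounds), with the median of each list as a vertical line and dotted lines at 2-fold. The 10 astrocyte genes lie between −0.36 and 0.07, while the Schwann cell and skeletal muscle markers reach 5.61 and 4.58.

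In the duodenum the 10 genes fell apart into genes that were bright, genes that were near background and genes that were not seen. *Gfap* and *Gjb6* passed the background call on neither array, with signals of at most 3.61 for the *Gfap* probes and 0.924 for *Gjb6*. *Gja1* passed it under the IP6K2-KO label alone. The other 7 were above background on both arrays. KO minus WT, the 8 genes with a value ran from −0.37 to 1.72 with a median of 0.27, and 1 of them, *S100b*, was at least 2-fold higher and 0 at least 2-fold lower. Over the 21445 genes measured, 7.96% were at least 2-fold higher and 11.9% at least 2-fold lower, so that 1 of 8 lies near the background. Among genes that both duodenum arrays measured above background, the median was −0.11.

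*S100b* was near background in the WT duodenum, at 4.77, where the lowest signal called well above background on that array was 3.24, and it was 74.5 on the array labelled IP6K2-KO. The normalized difference was 1.72 ± 0.32, a 3.29-fold higher level on the array labelled IP6K2-KO, with normexp background correction turning it to −0.40. Of the other enteric glia markers, the 4 with the highest level in the duodenum all had negative differences. *Sox10*, the transcription factor of peripheral glia, differed by −0.62 ± 0.17, *Erbb3*, the neuregulin receptor, by −2.65 ± 0.09, *Entpd2*, a nucleotidase, by −0.28 ± 0.07 and *Gfra3*, a receptor of GDNF family ligands, by −0.45 ± 0.11. Of 14 other S100 genes, 0 were at least 2-fold higher and 3 at least 2-fold lower in the duodenum.

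The metabolic genes were the bright ones in the duodenum, and all lay a little higher on the array labelled IP6K2-KO. *Glul* gave 699 and 5844, a normalized difference of 0.82 ± 0.07. *Aldoc* gave 465 and 2778 (0.33 ± 0.07) and *Aldh1l1* gave 1622 and 8922 (0.21 ± 0.07). Each of these differences exceeded 2 technical SDs, and each stayed positive under every alternative run. Of the 11 other genes of glutamate and glutamine handling 2 were at least 2-fold higher, the glutaminase gene *Gls2* (329 and 3771, 1.27 ± 0.07) and the glutamine transporter gene *Slc38a2* (79.3 and 911, 1.28 ± 0.09), and 0 were lower. *Aldoa* differed by −0.62 ± 0.07.

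The remaining genes of the 10 gave values of either sign in the duodenum. *Slc4a4* gave 99.9 and 538 (0.18 ± 0.08), with 0.14 ± 0.08 for its second bright probe, and the mean over its 3 probes, 1 of which was not well above background, was −0.44. *Fgfr3* gave 260.3 and 955, a difference of −0.37 ± 0.07, and 8.93 and 26.5 with the dimmer probe (−0.68 ± 0.23), so that both probes of this gene were lower on the array labelled IP6K2-KO in both tissues with the 75th percentile. In the duodenum that sign turned with normexp correction and with scaling on spiked-in control probes. Of the other receptors, *Fgfr4* differed by −0.94 ± 0.08, *Fgfr2* by −0.73 ± 0.14 and *Fgfr1* by 0.10 ± 0.07.

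For *Aqp4* the probes did not agree in the duodenum. The brighter probe gave 30.6 and 148, a difference of 0.02 ± 0.11 that normexp background correction turned to −0.25, and the other gave 6.77 and 63.7, a difference of 0.99 ± 0.24, so that no single value can be given for the gene. *Gja1* was not well above background in the WT duodenum (2.24) and gave 23.9 on the array labelled IP6K2-KO, at least 1.55-fold higher. *Aldh1l2*, the relative of *Aldh1l1*, gave 3.73 (not well above background) and 69.7, a difference of at least 1.98. *S100b*, *Gja1*, *Aldh1l2* and the dimmer *Aqp4* probe all had signals under 10 in the WT duodenum, the array with the lowest 75th percentile of the 4.

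Other astrocyte genes spread widely in the duodenum. Of the 34, 22 had a value, 4 were at least 2-fold higher and 2 at least 2-fold lower on the array labelled IP6K2-KO, with a median of 0.17 and a range from −2.83 to 1.44. The 4 with the highest level there were *Clu* (0.52 ± 0.07), *Cbs* (0.77 ± 0.07), an enzyme of sulfur amino acid metabolism, *Sparcl1* (−0.09 ± 0.07) and *Id3* (−0.80 ± 0.07), an inhibitor of transcription factors. Of 13 reactive astrocyte genes 2 were at least 2-fold higher and 0 lower, both named after their values were seen, *Cxcl10* (5.29 and 62.8) and *Serpina3n* (3.54, not well above background, and 79.6). Markers of other cells also differed. Of 8 pancreatic acinar markers 8 were lower on the array labelled IP6K2-KO, 4 of them at least 2-fold, and their summed normalized signal was 10556 in WT and 3674 on that array. Of 6 blood markers 6 were at least 2-fold lower, with a median of −3.39 and summed signals of 1532 and 88.4. Of 8 enterocyte markers 2 were at least 2-fold lower, with a median of −0.18. The summed signal of the 10 astrocyte genes was 46.9 and 59.8. The part of pancreas and blood in the duodenum values was not tested.

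**Figure D4:**
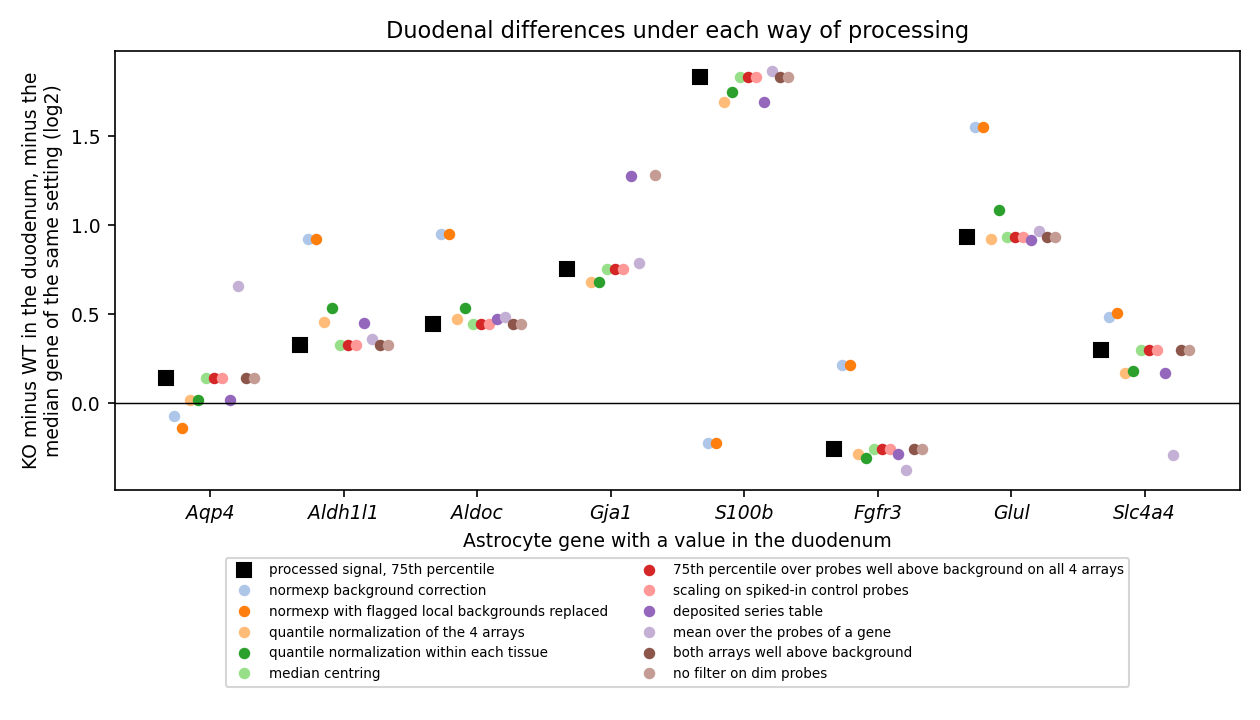
KO minus WT in the duodenum, relative to the median gene of the same setting (log2), for the 8 astrocyte genes with a value there, with the square for the 75th percentile and circles for each alternative. *S100b* lies at 1.83 under the 75th percentile and falls to −0.22 under normexp background correction, whereas *Glul* lies between 0.92 and 1.55 throughout.

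The tissues differed far more than the genotypes. On the WT arrays, 9 of the 10 genes were at least 2-fold higher in the spinal cord and 1, *Aldh1l1*, was at least 2-fold higher in the duodenum, and the same split was seen on the arrays labelled IP6K2-KO. Over all genes, 24.4% of 25233 were at least 2-fold higher and 30.2% at least 2-fold lower in the spinal cord in WT, and 26.7% and 30.3% of 25738 on the arrays labelled IP6K2-KO. The median of the 10 genes was 3.90 in WT and 3.50 on the arrays labelled IP6K2-KO, against medians of −0.63 and −0.30 for all genes that passed the background call in both tissues.

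*Gfap*, *Gjb6* and *S100b* stood at the top of this contrast. *Gfap* was at least 399-fold higher in the spinal cord in WT and at least 1417-fold on the arrays labelled IP6K2-KO. Its second probe gave at least 442-fold and 1985-fold, and its dimmer one at least 21.1-fold and 97.5-fold. *Gjb6* was at least 349-fold and at least 1537-fold higher. These are bounds set by the brightness of each duodenum array, so they cannot be ordered between the genotypes. *S100b* was above background in both tissues and differed by 10.02 ± 0.32 in WT and 8.23 ± 0.08 on the arrays labelled IP6K2-KO. Its signal in the WT duodenum was near background, at 4.77. With normexp background correction the values were 6.96 in WT and 7.70 on the arrays labelled IP6K2-KO, so the order of the genotypes depended on the processing.

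In the middle of the range, *Aldoc* was higher in the spinal cord by 4.52 ± 0.07 in WT and 4.20 ± 0.06 on the arrays labelled IP6K2-KO. *Gja1* was higher by at least 4.46 in WT and by 3.80 ± 0.04 on the arrays labelled IP6K2-KO. *Aqp4* was higher by 3.35 ± 0.11 and 3.20 ± 0.07, with 5.34 ± 0.23 and 4.32 ± 0.08 for its other probe. *Fgfr3* was higher by 2.99 ± 0.07 and 3.01 ± 0.06, values that differed by less than the technical SD.

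The genes that the gut shares were at the low end. *Glul* was higher in the spinal cord by 2.12 ± 0.06 in WT and 1.37 ± 0.06 on the arrays labelled IP6K2-KO, and *Slc4a4* by 1.52 ± 0.08 and 1.15 ± 0.06. *Aldh1l1* was lower in the spinal cord by the 75th percentile, at −1.12 ± 0.06 and −1.56 ± 0.06. Its value was positive with quantile normalization within each tissue (1.67 and 0.94) and with scaling on spiked-in probes (3.92 and 0.31). The first of these does not put the tissues on 1 scale. The median of all genes above background on both arrays lay at 2.08 and 2.31 there, and at 4.41 and 1.57 with spiked-in probes. In both settings *Aldh1l1* lay below that median. Relative to the median gene, *Aldh1l1* lay at −0.49 in WT, with alternatives from −0.50 to 0.35, and at −1.26 on the arrays labelled IP6K2-KO, with alternatives from −1.37 to −0.54. The other 9 genes were higher in the spinal cord under every alternative that gave a value.

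**Figure D5:**
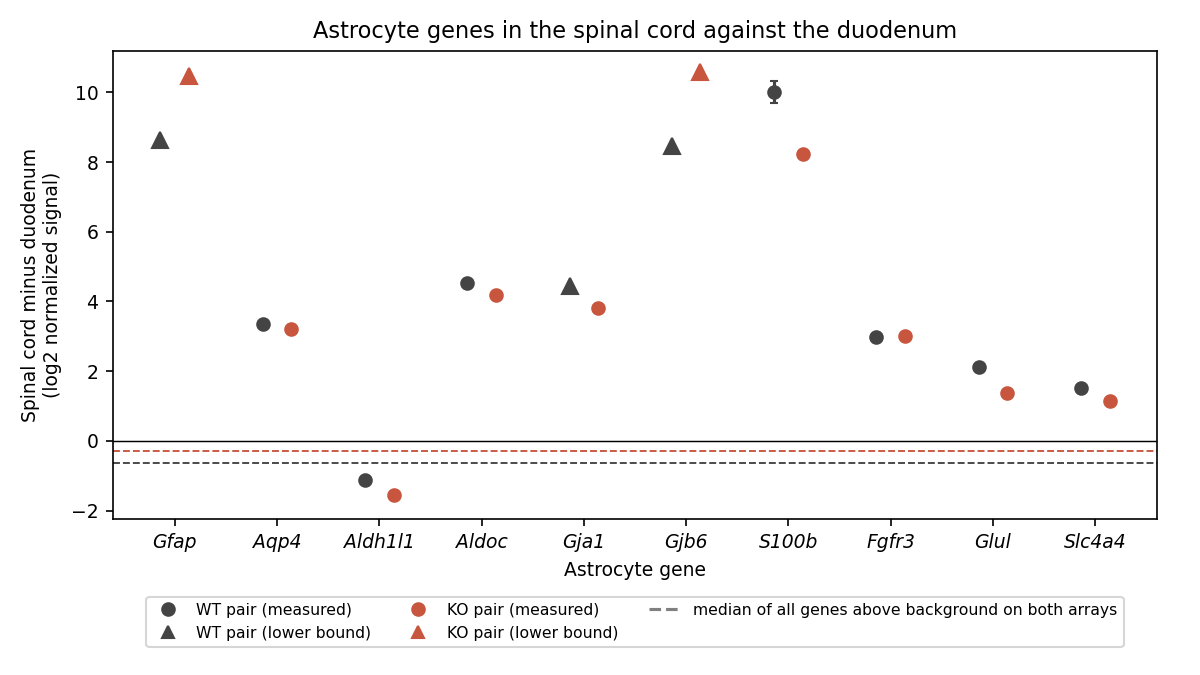
Spinal cord minus duodenum (log2 normalized signal) of each astrocyte gene in the WT pair and in the IP6K2-KO pair of arrays, with bars of 1 technical SD, triangles for lower bounds and dashed lines for the median of all genes above background on both arrays. *Gfap*, *Gjb6* and *S100b* lie highest, and *Aldh1l1* alone lies below the dashed lines on this scale.

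Relatives of the 10 genes had their own distribution over the tissues. Of the aldolases, *Aldoa* differed by −0.16 ± 0.06 in WT, against the 4.52 of *Aldoc*. Of the 10 other aquaporins, 8 were at least 2-fold lower in the spinal cord in WT and 1, *Aqp6*, at least 2-fold higher. *Fgfr4*, a receptor of gut and liver, differed by −5.55 ± 0.11 and *Fgfr1* by 1.60 ± 0.07. Of the 34 other astrocyte genes, 29 were at least 2-fold higher in the spinal cord and 1 at least 2-fold lower in WT, *Id3* (−2.48 ± 0.07), with the same counts on the arrays labelled IP6K2-KO.

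Over the 4 arrays, the genes with the profile nearest to the median profile of the 10 were *Mapre2*, *Ppp1r3d*, *Fam216a*, *Ywhag* and *Lysmd2*, with root mean square distances of 0.05, 0.06, 0.07, 0.07 and 0.08 on the log2 scale. The search ran over 12029 named genes that were well above background on all 4 arrays, with each gene centred on its own mean. A profile of 4 values is mostly the contrast of the tissues, and *Mapre2*, the nearest, gave 13267 and 14178 in the spinal cord and 68.4 and 415 in the duodenum.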

How the data were processed

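Per the labels and the methods of the study, RNA was labelled with Cy3, hybridised to mouse Agilent arrays and read with Agilent Feature Extraction 11.5.1.1. The values used here are the deposited processed signal intensity of each spot, from which that software had subtracted background. The authors also deposited a table of log2 values, which a quantile normalization of the 4 arrays rebuilt to within 0.018 on the probes of the 10 genes, and which served as an alternative. Outlier spots were left out, spots of a probe averaged, and log2 signals set on each array's 75th percentile. Each gene was represented by its probe with the highest mean log2 value over the 4 arrays, signals not well above background included. All probes of the 10 genes are covered in the comparisons of the genotypes, and some of them between the tissues. Where only 1 of 2 compared arrays measured a probe above background, the difference is a lower bound. It was taken against the dim array, using the higher of the probe's own value and the lowest value well above background there. Where a probe was above background on neither array, no difference is given. The technical SD is the median SD of the 50 replicated probes nearest in brightness. Since no group holds a second array, differences were not tested, and the number of arrays limits the precision. The members and lists were chosen with earlier results of these data known. Named were all 10 genes, genes of their families, the 4 brightest genes of each other list in the tissue described, and the 5 nearest profiles, except a few family and marker genes that are not reported here. Array identifiers were named through RefSeq, for 25868 of 26391 accessions. Alternatives were normexp background correction (limma 3.58.1, R 4.3.3, offset 50), quantile, median and spike-in scaling, other probe rules, other filters and a 1.5-fold threshold. The calculation (Python 3.11.15, numpy 2.4.6, pandas 2.3.3) was tested on simulated data with 200 changed genes.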

Additional observations from a re-analysis of the deposited data

Results flagged for a closer look

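For *S100b*, *Aldh1l1*, *Slc4a4*, *Aqp4* and *Gja1* the difference between the arrays labelled IP6K2-KO and WT had opposite signs in the 2 tissues. With 1 array per group, the difference between tissues was not tested. The smallest values were those of *Aqp4* in the duodenum (0.02 ± 0.11, against −0.12 ± 0.06 in the spinal cord) and of *Gja1* in the spinal cord (−0.02 ± 0.02, against at least 0.64 in the duodenum). *S100b* was −0.08 in the spinal cord and 1.72 in the duodenum (1.79 apart on the log2 scale), *Aldh1l1* was −0.23 and 0.21 (0.44 apart) and *Slc4a4* was −0.19 and 0.18 (0.37 apart).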

How the results depend on the processing

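With 1 array per group, no alternative leaves out a replicate and no difference was tested. No paired analysis was made, because each group holds 1 array. In the spinal cord, 0 of the 10 genes reached 2-fold under every alternative, and their median of −0.16 became 0.15 with normexp background correction and −0.32 with scaling on spiked-in probes. In the duodenum the median of 0.27 became 0.48 with quantile normalization of the 4 arrays, 0.55 with the same within each tissue, 0.39 with the 75th percentile over probes well above background on all arrays, 3.28 with spiked-in probes, 0.48 in the deposited table, 0.42 with the mean over probes and 0.20 with no filter on dim probes. The count of 1 gene 2-fold apart there became 2 with quantile normalization within each tissue, 8 with spiked-in probes, 2 in the deposited table, 3 with no filter and 3 at 1.5-fold. Between tissues in WT the median of 3.90 became 2.80 with normexp correction, 3.16 with normexp after flagged backgrounds were replaced (chosen after seeing the data), 4.18 with quantile normalization of the 4 arrays, 6.58 within each tissue, 3.68 with median centring, 4.31 with the percentile over detected probes, 8.94 with spiked-in probes, 4.48 in the deposited table, 4.40 with the mean over probes and 2.99 where both arrays were above background. For the arrays labelled IP6K2-KO the median of 3.50 became, in the same order, 3.001, 3.001, 3.76, 6.15, 3.23, 3.82, 5.37, 3.76, 3.78 and 3.11. Among the differences of at least 2-fold, the sign turned for *S100b* in the duodenum (−0.40 under both normexp corrections) and for *Aldh1l1* between tissues. For *Aldh1l1* it turned with quantile normalization within each tissue (1.67 in WT, 0.94 on the arrays labelled IP6K2-KO) and with spiked-in probes (3.92 and 0.31). Smaller differences also changed sign under at least 1 alternative, in the duodenum for *Aqp4*, *Fgfr3* and *Slc4a4*, and in the spinal cord for every gene but *Fgfr3*. The cause of these turns was not tested. With spiked-in probes the median of all genes above background on both arrays lay at 2.89 in the duodenum, 4.41 between tissues in WT and 1.57 on the arrays labelled IP6K2-KO, against −0.11, −0.63 and −0.30 with the 75th percentile. Quantile normalization within each tissue does not put the tissues on 1 scale. With it, this median lay at 2.08 between tissues in WT and 2.31 on the arrays labelled IP6K2-KO. Relative to the median gene of each setting, the 10 genes had a median of −0.12 in the spinal cord, which normexp correction turned to 0.60, and of 0.39 in the duodenum, with alternatives from 0.31 to 0.57, 4.53 between tissues in WT (3.25 to 5.02) and 3.80 on the arrays labelled IP6K2-KO (3.41 to 4.06). Over all genes, the count 2-fold apart was 969 in the spinal cord (192 with normexp after replacement, 9749 with normexp, 1980 with no filter), 4260 in the duodenum (20796 with spiked-in probes, 15002 with no filter), 13786 between tissues in WT (7479 with normexp, 24189 with spiked-in probes) and 14667 on the arrays labelled IP6K2-KO (11405 to 21841). Low signal in the WT duodenum, with 51.6% of probes well above background, limits the values of *S100b*, *Gja1* and *Aqp4* there.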
